A study of Homo sapiens with 6 samples.

Results

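This account describes 66 genes of the lysosome in NOMO-1 cells, a human acute myeloid leukaemia line, with and without the RNA methyltransferase METTL16. The genes were picked by a rule on their names, set with earlier results of these data known. The rule took 44 symbols for lysosomal hydrolases, membrane proteins and regulators. It also took 22 rows whose symbol begins with ATP6V or ATP6AP, the names of the vacuolar ATPase. CTSL and LGMN were not analysed here, which left 64 of the 15059 genes of the deposited table. SGSH, at 0.10 to 0.25 in all 6 libraries, did not reach the level needed for testing, so 63 genes were tested.

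Each group had 2 libraries of total RNA depleted of ribosomal RNA. Control cells carried the control guide sgNS and an empty vector, EV (sgNS+EV). Knockout cells had a METTL16 guide with the same empty vector (sgMETTL16+EV). Rescue cells had the METTL16 guide as well, in cells that already overexpressed METTL16 (sgMETTL16+OE-METTL16). All 3 groups had been transduced with lentivirus and kept in puromycin at 2 µg/ml for 1 to 2 weeks and these steps are common to control, knockout and rescue. The rescue cells were a parallel group and not a later stage of the knockout cells. No source used here says whether the cells were clones, or whether replicates were separate cultures, so p-values measure the spread between these libraries only.

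The lysosome is the acidic compartment in which proteins, glycans and lipids from endocytosis, phagocytosis and autophagy are broken down. The vacuolar ATPase pumps protons into it, cathepsins and other hydrolases work at its low pH, and heavily glycosylated membrane proteins line and protect it. The transcription factors TFEB, TFE3 and MITF bind the CLEAR element, a sequence built around CACGTG, in the promoters of many lysosomal genes. Monocytes and macrophages are rich in lysosomes, and several of these genes, such as CD68, serve as markers of those cells.

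Each value, called the signal, is an RSEM abundance of a gene in a library, which corrects for transcript length. The signal summed over all genes ran from 597160 to 681928 per library. From the spacing between low values, a transcript of 2000 nt with a signal of 1 was estimated to have 46.1 to 49.9 reads. Control replicate 2 lay low, its genes deviating by a median of -0.10 on the log2 scale, against 0.0024 to 0.040 in the other 5 libraries. The guide's target METTL16 had a signal of 9.89 and 9.63 in control, 6.05 and 5.83 in knockout and 12.3 and 12.1 in rescue libraries (limma, log2 -0.63 in knockout against control, adjusted p = 4.76e-05). Its known target MAT2A, which makes S-adenosylmethionine, was also lowest in knockout, with 140 and 132 in control, 77.6 and 78.1 in knockout and 134 and 138 in rescue libraries, where rescue overlapped control. Among markers of other lineages, the epithelial genes KRT8 and KRT18 stayed at 0.15 to 1.03, whereas the myeloid antigen CD33 was at 30.0 to 37.3. Markers of other lineages were not all low. The 4 lymphoid markers with a signal summed to 131 and 114 in control, 160 and 154 in knockout and 129 and 128 in rescue libraries.

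Most lysosomal genes that differed in knockout cells were higher. Of the 63 genes tested, 35 rose, 8 fell and 20 did not pass (limma on log2(signal + 1), Benjamini-Hochberg adjusted p under 0.05 over 12734 genes). The fallen count was 3 without knockout replicate 2 and 5 without control replicate 1. Over all genes tested, 26.2% rose and 13.5% fell. As the members were chosen with earlier results of these data known, their counts beside these shares are a description. The members' median log2 difference was 0.24, beside 0.067 over all genes. Rises came in membrane proteins (6 of 7), subunits of the ATPase (12 of 19), cathepsins (4 of 7) and lipid and other protein hydrolases (4 of 5), and glycan hydrolases moved both ways (6 of 16 risen, 3 fallen). Most changes were modest, and the greatest limma estimate among the members was 0.97 on the log2 scale, in CD68. Adding 1 to the signal shrinks the estimates of low genes. As a plain ratio of knockout to control means, ATP6V0D2 was higher, at 2.70 beside 1.98 for CD68. ATP6V0D2 had a low signal and reached the level for testing only through the knockout libraries. In bulk RNA, more RNA per cell and more cells of a kind that expresses a gene cannot be told apart.

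**Figure D1:**
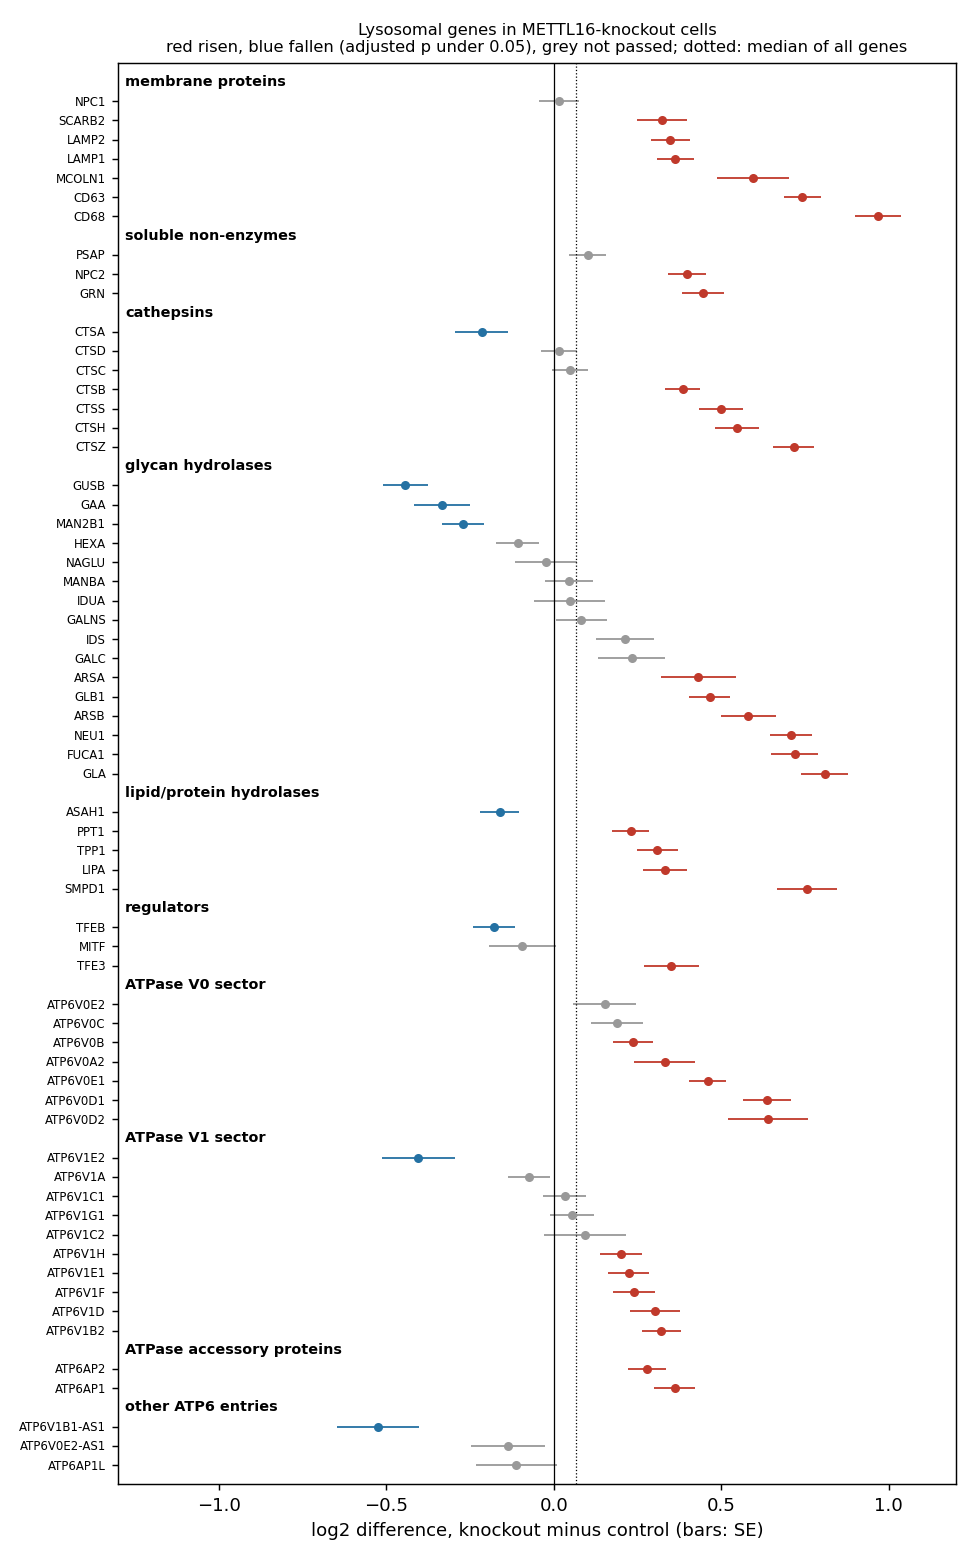
Log2 difference between knockout and control libraries for the 63 lysosomal genes tested, by functional group, with points for the limma estimate and bars for its SE. Of the points, 35 are red for risen, 8 blue for fallen and 20 grey for not passed, and the dotted line marks the median of all genes at 0.067.

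Genes of another kind moved in the same direction. Azurophil granules are lysosome-related granules of neutrophil and monocyte precursors. Of 8 tested genes on a list for these granules, 7 rose and none fell in knockout. The list also holds SERPINB1 (log2 0.44), an inhibitor of granule proteases, which is among the 7. Summed over the 9 genes of that list in the table, the signal was 664 to 712 in control, 2080 to 2124 in knockout and 956 to 960.0 in rescue libraries. Much of that sum was CTSG (cathepsin G) alone, at 324 and 304 in control, 1364 and 1340 in knockout and 492 and 482 in rescue libraries. CTSG (log2 2.10), RNASE3 (1.58) and RNASE2 (1.38) had the smallest p of that list. AZU1 did not pass (0.17, limma adjusted p = 0.102), and MPO was not analysed here. Among monocyte and macrophage markers 4 of 8 rose. The shares over all genes, 26.2% risen and 13.5% fallen, are the background for each marker list. The summed signal of these 8 markers was 126 to 137 in control, 140 to 142 in knockout and 141 to 143 in rescue. CSF1R (1.02) and FCGR1A (0.63) had the smallest p of the list. CD33, also called as risen (0.24), lost the call without knockout replicate 2 (0.17, adjusted p = 0.198), with equal library medians (0.16, adjusted p = 0.115) and after quantile normalization (0.18, adjusted p = 0.0648). The 4 markers of this list that did not pass included ITGAM (-0.095), CD4 (-0.077) and ITGAX (0.026). Of these CD4 had the highest signal, at 75.9 and 68.5 in control and 69.6 and 66.9 in knockout libraries. CD14, CD163, MRC1 and MSR1 were not analysed here. Of 3 tested lymphoid markers 2 rose, CD2 (1.22) and NKG7 (0.34), and the erythroid genes KLF1 and EPOR did not pass. CD2 and CSF1R reached the level for testing only through the knockout libraries, so they had to differ to be counted. The part of such a shift in the lysosomal differences was not tested.

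The 3 regulators did not move together. TFEB, which drives lysosomal genes when it enters the nucleus, was the most abundant, with a signal of 76.5 and 70.8 in control, 67.6 and 62.4 in knockout and 73.2 and 71.1 in rescue libraries. All knockout values lay below the control values, and the fall was small (log2 -0.18, SE 0.062, limma adjusted p = 0.035). It lost the call without control replicate 1 (-0.12, adjusted p = 0.136), without knockout replicate 2 (-0.12, adjusted p = 0.31), without either rescue library, without a trend and with only 2 groups in the fit. TFE3, a close relative on the X chromosome (chrX:49028726-49043486, minus strand, GRCh38), rose from 13.5 and 11.9 to 16.7 and 16.1, with 12.7 and 12.3 in rescue (log2 0.35, adjusted p = 0.00375). MITF, known mainly from melanocytes, was near 2.4 to 2.8 in all 6 libraries and did not pass (adjusted p = 0.484). The ratio of TFE3 to TFEB within a library was thus 0.177 and 0.167 in control, 0.247 and 0.258 in knockout, and 0.173 in both rescue libraries. These are levels of messenger RNA, while TFEB and TFE3 are known to be controlled largely by their location in the cell.

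Promoters of the members were searched for the letters of the CLEAR element, in the 250 bases before each RefSeq start site (GRCh38.p14). Of the 64 members 46 matched an entry, with 69 windows between them. CACGTG, which reads the same on both strands, was found in 20.3% of these windows and in 6.34% of the 35116 windows of all genes. The longer GTCACGTG or its reverse complement CACGTGAC was found in 14.5%, beside 2.16% of all windows, and a palindrome of 10 bases, GTCACGTG followed at once by AC, in 5.8%, beside 0.308%. The 10 genes with the 8-letter form were spread over all outcomes: 5 rose in knockout (ARSB, ATP6V0B, ATP6V0D1, LAMP1, MCOLN1), 2 fell (CTSA, GAA) and 3 did not pass (ATP6V1G1, CTSD, GALNS). Among the 46 matched members as a whole, 27 rose, 6 fell and 13 did not pass. A match describes the letters only and is not a measured binding site. LAMP1 (risen), GAA and CTSA (fallen) and GALNS (not passed) each hold a further stretch with 1 match that is not shown, in GAA again the full palindrome. The matches shown are therefore not all those of a promoter and cannot be compared in number. Stretches around 1 or more matches are shown to compare risen, fallen and unmoved genes that hold the same letters, 5′ to 3′ on the gene's strand, with the 8 or 10 matching bases in capitals.
LAMP1, risen (chr13:113297025-113297122, plus strand): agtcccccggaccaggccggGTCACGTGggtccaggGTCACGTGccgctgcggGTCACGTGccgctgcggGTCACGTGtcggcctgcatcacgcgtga
MCOLN1, risen (chr19:7522561-7522623, plus strand): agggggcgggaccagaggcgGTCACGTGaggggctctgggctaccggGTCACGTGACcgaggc
ARSB, risen (chr5:78986091-78986138, minus strand): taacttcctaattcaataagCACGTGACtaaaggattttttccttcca
ATP6V0D1, risen (chr16:67481201-67481228, minus strand): cccccttatgGTCACGTGaggcgcttgc
ATP6V0B, risen (chr1:43974891-43974918, plus strand): ccggcgtgggGTCACGTGgtaccggcgc
GAA, fallen (chr17:80101483-80101532, plus strand): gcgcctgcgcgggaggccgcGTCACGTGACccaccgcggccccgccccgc
CTSA, fallen (chr20:45891281-45891308, plus strand): gaggaagactGTCACGTGgcgccggagt
GALNS, not passed (chr16:88857094-88857143, minus strand): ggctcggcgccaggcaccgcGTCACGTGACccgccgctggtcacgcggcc
ATP6V1G1, not passed (chr9:114587689-114587738, plus strand): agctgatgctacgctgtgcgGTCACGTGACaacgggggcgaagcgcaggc
CTSD, not passed (chr11:1763957-1763984, minus strand): cggccgcgccCACGTGACcggtccgggt
The full palindrome was found in MCOLN1, GAA, ATP6V1G1 and GALNS. MCOLN1 was higher in knockout (log2 0.59), GAA was lower (-0.33), and ATP6V1G1 and GALNS did not pass. The call of GAA was lost without knockout replicate 2. Any part of the palindrome in these differences was not tested.

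The vacuolar ATPase has a V0 sector in the membrane, which carries the protons, and a V1 sector in the cytosol, which hydrolyses ATP. Of 7 V0 subunits 5 rose and none fell, with a median log2 difference of 0.33. The 5 include ATP6V0D2, which reached the level for testing only through the knockout libraries. Of 10 V1 subunits 5 rose and 1 fell, with a median of 0.15. The summed signal of V0 was 248 and 222 in control, 307 and 292 in knockout and 252 and 253 in rescue libraries. That of V1 was 350 and 321, then 381 and 379, then 343 and 350. In both sectors the knockout libraries lay above the other 4 (exact permutation test, two-sided, p = 0.333 for knockout against control, the smallest that 2 against 2 can give).

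ATP6V0D1, the d subunit that couples the sectors (chr16:67438014-67481237, minus strand), had the greatest V0 change of the well-expressed subunits. Its signal was 26.9 and 23.8 in control, 41.2 and 38.6 in knockout and 26.8 and 28.0 in rescue libraries (log2 0.64, SE 0.073, limma adjusted p = 1.73e-05). The knockout values stood clear of the rest, and its promoter is 1 of those with GTCACGTG shown above. Its paralog ATP6V0D2, known from osteoclasts and macrophages, was low throughout, at 0.61 and 0.35, then 1.29 and 1.30, then 0.54 and 0.64 (log2 0.64, adjusted p = 0.000854). It reached the level for testing only in the knockout libraries, so it had to differ to be counted. The counts of risen ATPase subunits and of risen members given above include it. ATP6V0E1, a small membrane subunit, rose from 71.0 and 66.9 to 94.8 and 95.6 (log2 0.46, adjusted p = 2.74e-05), while its paralog ATP6V0E2, at 4.10 to 4.95, did not pass. ATP6V0A2, a form of the large subunit in the proton path, rose by 0.33 (adjusted p = 0.0105) and ATP6V0B, a proteolipid of the rotor, by 0.24 (adjusted p = 0.00651). Without knockout replicate 1 neither kept its call (adjusted p = 0.0643 and 0.105). ATP6V0C, the main rotor proteolipid, had 74.7 and 61.3 in control and 80.7 and 74.1 in knockout libraries. These groups overlapped and the gene did not pass (log2 0.19, adjusted p = 0.071), although it passed in 8 of the 16 alternatives, among them that with the replicate block (adjusted p = 0.0086).

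In V1, the 2 kinds of subunit that form the catalytic head differed. ATP6V1B2, the nucleotide-binding B subunit, was at 76.2 and 69.6 in control, 90.7 and 91.7 in knockout and 76.7 and 77.1 in rescue libraries (log2 0.32, adjusted p = 0.000723). ATP6V1A, the catalytic A subunit that it alternates with, was at 43.5 and 40.5, then 40.2 and 39.5, then 41.1 and 43.7, and did not pass (log2 -0.074, adjusted p = 0.375). With equal library medians it was called as fallen (-0.15, adjusted p = 0.0118), as after quantile normalization (-0.16, adjusted p = 0.00821). ATP6V1D of the central stalk rose by 0.30, ATP6V1F by 0.24, ATP6V1E1 of the peripheral stalk by 0.22 and the regulator ATP6V1H by 0.20. Leaving out knockout replicate 1 ended the calls of ATP6V1D (adjusted p = 0.0591), ATP6V1E1 (0.0766) and ATP6V1H (0.119). Leaving out knockout replicate 2 ended those of ATP6V1E1 (0.0693) and ATP6V1H (0.0954). ATP6V1C1, ATP6V1C2 and ATP6V1G1 did not pass, with log2 differences from 0.03 to 0.09. ATP6V1E2, a paralog of ATP6V1E1 known from testis, fell from 3.45 and 3.52 to 2.69 and 2.11 (log2 -0.40, adjusted p = 0.00923), a call lost when knockout replicate 2 (-0.28, adjusted p = 0.154) or control replicate 2 (-0.39, adjusted p = 0.0525) was left out.

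Both accessory proteins rose. ATP6AP1, which helps the V0 sector assemble, went from 72.5 and 65.8 to 90.7 and 87.3, with 70.6 and 66.7 in rescue (log2 0.36, adjusted p = 0.000474). ATP6AP2, also called the prorenin receptor, was at 62.1 and 60.2, then 72.7 and 76.0, then 66.3 and 69.0 (log2 0.28, adjusted p = 0.00168). The remaining entries with these names are not subunits. The antisense RNA ATP6V1B1-AS1 fell from 4.58 and 3.30 to 2.27 and 2.55 (log2 -0.52, adjusted p = 0.00404), and ATP6V0E2-AS1 and ATP6AP1L did not pass. The libraries were stranded, but whether the counting used strand is not given in the sources used here, so antisense RNAs and their partners may share reads.

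**Figure D2:**
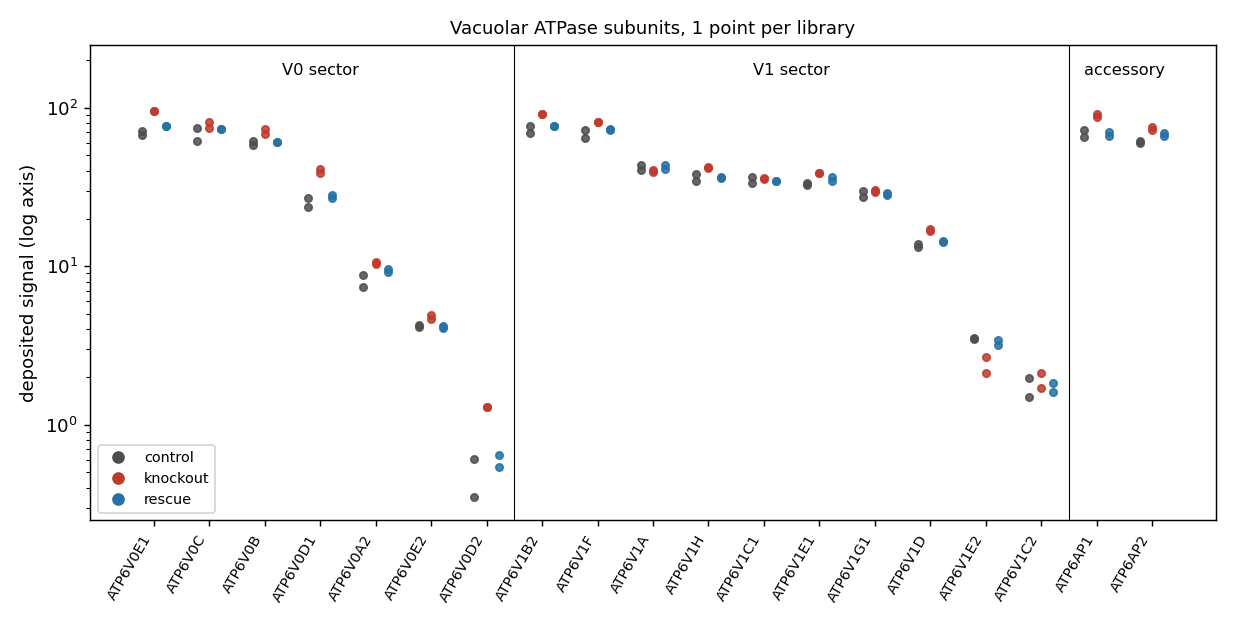
Signal of the 19 vacuolar ATPase subunits and accessory proteins on a log axis, 1 point per library (grey control, red knockout, blue rescue). Knockout points stand above the others for ATP6V0D1 and ATP6V0E1, overlap them for ATP6V1C1, and lie below them for ATP6V1E2.

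Of the 7 membrane proteins 6 rose and none fell. CD68, a mucin-like protein of macrophage lysosomes (chr17:7579467-7582113, plus strand), had a signal of 33.9 and 29.7 in control, 63.4 and 62.7 in knockout and 35.4 and 37.5 in rescue libraries. Knockout cells thus held 1.98 times the control level (log2 0.97, SE 0.069, limma adjusted p = 2.83e-07). CD63, a tetraspanin of late endosomes and lysosome-related granules (chr12:55725323-55729707, minus strand), was at 83.1 and 83.9, then 146 and 135, then 95.5 and 93.7 (log2 0.74, adjusted p = 4.08e-07). For both genes rescue values came close to control and far from knockout.

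The main glycoproteins of the lysosomal membrane moved less. LAMP1 was at 150 and 137 in control, 185 and 184 in knockout and 162 and 160 in rescue libraries (log2 0.36, adjusted p = 0.000195). LAMP2, needed for fusion with autophagosomes, rose by 0.35 and SCARB2, a sorting receptor of the lysosomal membrane, by 0.32. MCOLN1, a calcium channel of the lysosome, rose from 3.22 and 2.63 to 4.83 and 4.99 (log2 0.59, adjusted p = 0.000638). NPC1, which exports cholesterol, was at 49.8 to 55.6 in all libraries (log2 0.015, adjusted p = 0.869). Its soluble partner NPC2, which hands cholesterol to it, rose from 103 and 96.1 to 131 and 132, with 98.7 and 104 in rescue (log2 0.40, adjusted p = 0.000106). GRN, the precursor of granulins, rose by 0.45 (adjusted p = 9.43e-05), and PSAP, the precursor of the saposins that help degrade sphingolipids, did not pass (0.10, adjusted p = 0.158). PSAP passed after quantile normalization (0.093, adjusted p = 0.0331) and after rescaling without the 10 most abundant genes (0.11, adjusted p = 0.0285).

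Among cathepsins the most abundant did not pass. CTSD, an aspartic protease, had a signal of 1322 and 1242 in control, 1320 and 1270 in knockout and 1339 and 1319 in rescue libraries (log2 0.015, adjusted p = 0.85), though it was called as risen after quantile normalization (0.10, adjusted p = 0.0186). It made up 28.0% to 32.1% of the members' summed signal in each library. Without it the other 6 cathepsins summed to 365 and 343 in control, 471 and 451 in knockout and 384 and 386 in rescue. CTSC, which activates the serine proteases of granules, did not pass either (0.048, adjusted p = 0.50).

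The cysteine cathepsins CTSZ, CTSH, CTSS and CTSB rose. CTSZ, a carboxypeptidase (chr20:58995185-59007247, minus strand), was at 75.2 and 69.2 in control, 124 and 115 in knockout and 81.4 and 80.8 in rescue libraries (log2 0.72, SE 0.060, limma adjusted p = 1.20e-06). CTSH, an aminopeptidase, rose from 38.6 and 35.2 to 55.6 and 53.0 (log2 0.55), and CTSS, which processes the invariant chain for antigen presentation, from 20.4 and 19.4 to 28.9 and 28.3 (log2 0.50). CTSB, a major endopeptidase, rose by 0.39 from 117 and 111 to 151 and 146. CTSA went the other way. This serine carboxypeptidase, at 31.3 and 26.7 in control, 25.3 and 24.2 in knockout and 31.0 and 33.0 in rescue libraries, fell by 0.22 on the log2 scale (adjusted p = 0.0411). It lost its call when control replicate 1 (-0.10, adjusted p = 0.207), knockout replicate 1 (adjusted p = 0.0547) or knockout replicate 2 (adjusted p = 0.169) was left out, and without a filter (0.0535) or a trend (0.0902).

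CTSA is known to bind and protect 2 glycan hydrolases, the sialidase NEU1 and the beta-galactosidase GLB1, in 1 complex, and both of these rose. NEU1 (chr6:31857659-31862906, minus strand) was at 37.3 and 34.8 in control, 61.3 and 57.8 in knockout and 39.1 and 38.9 in rescue libraries (log2 0.71, adjusted p = 1.91e-06). GLB1 was at 80.4 and 71.6, then 105 and 106, then 80.9 and 80.8 (log2 0.47, adjusted p = 5.69e-05). The ratio of NEU1 to CTSA within a library, which no scaling of libraries alters, was 1.19 and 1.30 in control, 2.42 and 2.39 in knockout and 1.26 and 1.18 in rescue. That of GLB1 to CTSA was 2.57 and 2.69, then 4.13 and 4.38, then 2.61 and 2.45. In both ratios knockout did not overlap control and rescue did. These pairs and the other ratios given here were picked after the values were seen, so they are descriptions.

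Among the groups of members the glycan hydrolases had the widest range of log2 differences. GLA, which removes terminal alpha-galactose from glycolipids (chrX:101397803-101408012, minus strand), rose from 35.9 and 32.1 to 62.4 and 58.1, with 36.7 and 39.5 in rescue (log2 0.81, SE 0.071, limma adjusted p = 1.65e-06). FUCA1, the fucosidase (chr1:23845077-23868294, minus strand), was at 26.4 and 23.4, then 42.7 and 40.5, then 32.1 and 31.3 (log2 0.72, adjusted p = 4.98e-06). The sulfatases ARSB, which acts on dermatan sulfate, and ARSA, which acts on sulfatide, rose by 0.58 (adjusted p = 0.000108) and 0.43 (adjusted p = 0.00758). ARSA, at 2.24 to 3.83, lost its call without control replicate 2 (adjusted p = 0.0642) or knockout replicate 1 (0.0734).

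GUSB, GAA and MAN2B1 fell. GUSB, the beta-glucuronidase (chr7:65960684-65982314, minus strand), was at 44.0 and 40.1 in control, 31.8 and 29.4 in knockout and 44.2 and 44.0 in rescue libraries (log2 -0.44, SE 0.067, limma adjusted p = 0.000178). GENCODE release 29 lists 11 pseudogenes under its name, and reads shared with them could be divided differently by the counting. The same caution holds for the risen ATP6V0E1 (4 pseudogenes), FUCA1 (1) and ATP6V1E1 (1). It also holds for ATP6V1G1 (5), ATP6V0C (4) and IDS (1), which did not pass. GAA, which degrades lysosomal glycogen, fell from 15.4 and 13.7 to 11.9 and 10.8 (log2 -0.33, adjusted p = 0.00582). MAN2B1, the alpha-mannosidase, fell from 57.7 and 52.9 to 47.3 and 44.0 (log2 -0.27, adjusted p = 0.00422). The calls of GAA (adjusted p = 0.0718) and MAN2B1 (0.0535) were lost without knockout replicate 2. The ratio of GLA to GUSB within a library moved from 0.816 and 0.801 in control to 1.96 and 1.97 in knockout, and was 0.829 and 0.898 in rescue.

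The other 7 glycan hydrolases did not pass, with log2 differences between -0.11 for HEXA and 0.23 for GALC. HEXA, the alpha subunit of beta-hexosaminidase, was at 62.2 and 55.3 in control and 55.2 and 53.6 in knockout libraries. It was called as fallen with equal library medians (-0.18, adjusted p = 0.00399), under 2 other scalings and when control replicate 2 was left out (-0.19, adjusted p = 0.0182). GALC passed without control replicate 2 (0.30, adjusted p = 0.0369), and IDS without control replicate 1 (0.28, adjusted p = 0.0241). NAGLU, IDUA, MANBA and GALNS, which act on heparan sulfate, other glycosaminoglycans and glycoproteins, lay between -0.024 and 0.083.

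Of the hydrolases of lipids and of proteins other than cathepsins, 4 of 5 rose and 1 fell. SMPD1, the acid sphingomyelinase (chr11:6390431-6394998, plus strand), makes ceramide, and its signal was 5.17 and 4.85 in control, 9.24 and 9.07 in knockout and 5.98 and 6.52 in rescue libraries (log2 0.76, SE 0.090, limma adjusted p = 2.43e-05). ASAH1, the acid ceramidase that breaks ceramide down, was the second most abundant member, at 274 and 252, then 229 and 241, then 249 and 262. It fell by 0.16 on the log2 scale (adjusted p = 0.0363), a call that ended when control replicate 1 (-0.10, adjusted p = 0.154) or knockout replicate 1 (-0.12, adjusted p = 0.229) was left out, without either rescue library, without a trend and with only 2 groups in the fit. The ratio of SMPD1 to ASAH1 was 0.0189 and 0.0192 in control, 0.0404 and 0.0376 in knockout and 0.0240 and 0.0249 in rescue. LIPA, the acid lipase for cholesterol esters, rose by 0.33, TPP1, a tripeptidyl peptidase, by 0.31 and PPT1, which removes palmitate from proteins, by 0.23.

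**Figure D3:**
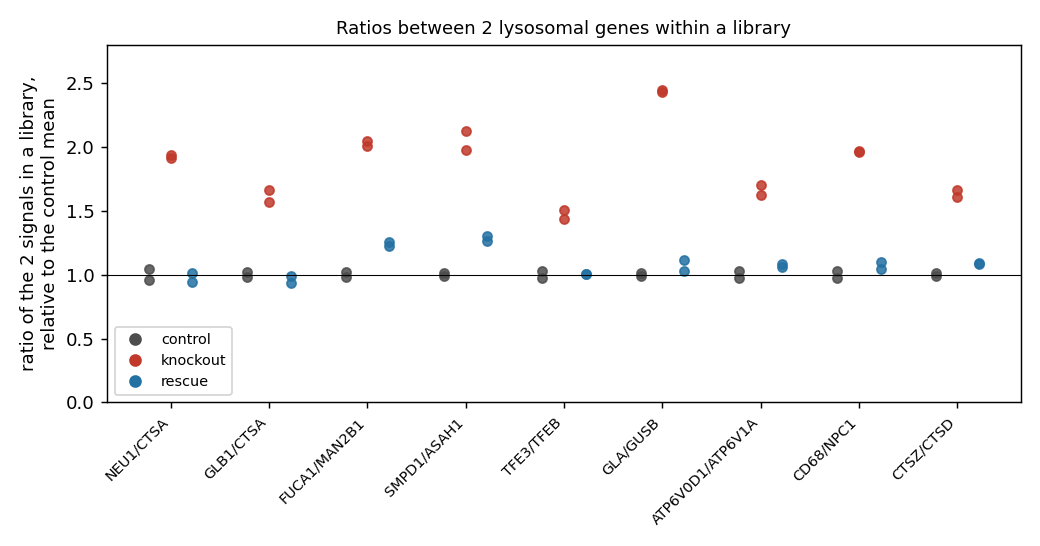
Ratio of the signals of 2 lysosomal genes within each library, divided by the mean of the 2 control libraries (grey control, red knockout, blue rescue). Knockout points lie apart from control in all 9 ratios, with GLA/GUSB the highest, and rescue points overlap control for NEU1/CTSA, GLB1/CTSA and TFE3/TFEB and lie above control, below knockout, for the other 6.

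Outside the members, 5 lists of related genes gave 34 risen and 5 fallen of 83 tested, with a median log2 difference of 0.15. The shares over all genes, 26.2% risen and 13.5% fallen, are the background for each list. Other lysosomal enzymes had 11 risen and 2 fallen of 18. SCPEP1, a serine carboxypeptidase, rose by 0.80 (adjusted p = 2.76e-06). AGA, which cleaves the bond between asparagine and glycan, fell from 12.8 and 11.0 to 6.57 and 7.08 (log2 -0.72, adjusted p = 3.77e-05). RNASET2, a ribonuclease, fell by 0.20, a call that ended when knockout replicate 2 was left out (-0.16). Other membrane proteins and channels had 5 risen and 1 fallen of 17, a risen share close to the background. The fallen gene was CLCN7, the chloride and proton exchanger of the lysosome, at 39.6 and 35.1 in control, 21.4 and 18.4 in knockout and 36.0 and 34.8 in rescue libraries (log2 -0.88, SE 0.080, limma adjusted p = 2.49e-06). LAPTM5 (0.42) and TPCN2 (0.44) were among those risen, while OSTM1, the partner of CLCN7, was at 0.20 and did not pass. OSTM1, AGA, RNASET2 and FNIP2 were looked up after their values were seen.

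Genes that tag and sort hydrolases by mannose 6-phosphate had 5 risen and none fallen of 11. GNPTAB, the transferase that starts the tag, rose by 0.48 (adjusted p = 0.00026) and SUMF2, a relative of the factor that activates sulfatases, by 0.31. GGA3, a sorting adaptor, rose by 0.31, a call lost without knockout replicate 1 (adjusted p = 0.0517). Ragulator, Rag GTPase and mTORC1 genes, which act on TFEB at the lysosomal surface, had 4 risen and 2 fallen of 18, both shares near or below the background. LAMTOR2, a Ragulator subunit, rose from 33.6 and 30.0 to 59.2 and 52.1 (log2 0.79, adjusted p = 3.31e-06) and RRAGA by 0.52, while MLST8, a subunit of mTORC1, fell by 0.36 and FNIP2, which binds folliculin, by 0.30. Genes of late endosome fusion and lysosome movement had 9 risen and none fallen of 19, with VPS18 (0.60), SNAPIN (0.43) and VPS33A (0.47) as the examples.

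The comparison of rescue with knockout asked which genes differed when METTL16 was overexpressed in cells with the same guide. Of the 63 members 30 were lower and 6 higher in rescue, with a median log2 difference of -0.17, beside 15.9% fallen and 15.6% risen and a median of -0.012 over all genes. CD68 (-0.77), GLA (-0.65), NEU1 (-0.60), CD63 (-0.56), CTSZ (-0.55) and ATP6V0D1 (-0.53) were the members with the largest falls of those expressed at 1 or more in all libraries. ATP6V1B1-AS1 (0.66), GUSB (0.51), CTSA (0.36), ATP6V1E2 (0.35), GAA (0.31) and MAN2B1 (0.31) were the 6 that rose. This comparison shares the knockout libraries with that of knockout and control, so opposite signs in both are no independent support. Called in knockout against control and not here were PPT1, ATP6V1E1, ATP6V1F, ATP6AP2, ATP6V0A2, ASAH1 and TFEB, with log2 differences of -0.08, -0.12, -0.15, -0.13, -0.13, 0.12 and 0.15. Without rescue replicate 1 the count of fallen members dropped to 19. LAMP1 (-0.20, adjusted p = 0.016) lost its call without any 1 of the 4 libraries of this comparison (adjusted p from 0.0562 to 0.129), as did SCARB2 (from 0.0691 to 0.11), TPP1, ATP6V1D and ATP6V1H.

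Between rescue and control no member passed (limma), beside 0.283% of all genes, and 13 of 63 had an unadjusted p under 0.05, beside 11.5% of all genes. The median log2 difference was 0.083, beside 0.061 over all genes. Both rescue values lay above both control values for 31 members and below them for 1, beside 34.6% and 5.33% of all genes. FUCA1 had the smallest adjusted p, with 32.1 and 31.3 in rescue against 26.4 and 23.4 in control (log2 0.34, adjusted p = 0.065). It was called in 5 of the 16 alternatives, with an adjusted p of 0.000298 with the replicate block and 0.00433 with only those 2 groups in the fit, and the adjusted p ran from 0.000298 to 0.33 over all 16. The summed signal of all 64 members was 4178 and 3875 in control, 4667 and 4536 in knockout and 4217 and 4232 in rescue libraries. It was 0.625% of the whole signal in both control libraries, 0.719% and 0.760% in knockout and 0.620% and 0.621% in rescue.

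**Figure D4:**
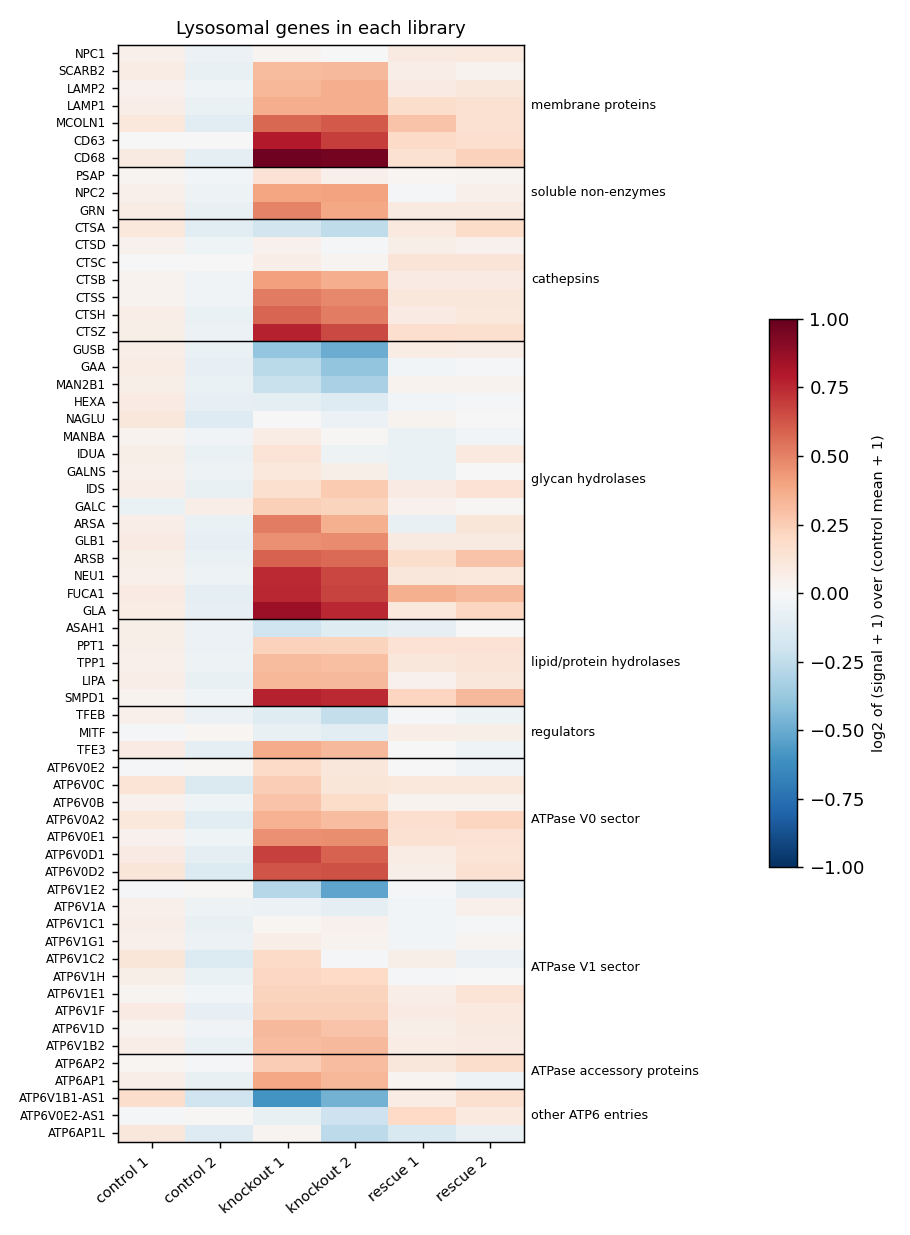
Log2 of (signal + 1) in each library over the control mean + 1 for the 63 lysosomal genes tested, in rows by functional group, with 1 column per library, red for higher and blue for lower. The 2 knockout columns are red for most rows and blue for GUSB, GAA and MAN2B1, while the rescue columns are pale, with FUCA1 the reddest.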

How the data were processed

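Per the labels, total RNA was taken with QIAzol, depleted of ribosomal RNA with Ribo-Zero, made into stranded TruSeq libraries and read on a HiSeq. STAR, RSEM and GRCh38 are named, without versions, per the submitters' processing notes. The authors deposited 1 signal per gene and library, an RSEM abundance whose kind (TPM or FPKM) is not stated. Read totals are not given in the sources used here. Depth was estimated from the spacing of values of transcripts of up to 400 nt, less 50 nt, of which 75.6% to 86.5% lay within 0.15 of a whole number for the best step of each library (chosen in these values).

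Members and lists were chosen with earlier results of these data known. A gene entered the test where 2 or more libraries had a signal of 1 or more, which kept 12734 and left out 2325. limma 3.58.1 (R 4.3.3) fitted log2(signal + 1) of the 6 libraries together, with a trend (residual degrees of freedom 3, prior 11.0), Benjamini-Hochberg over all genes, two-sided, threshold 0.05. Adding 1 shrinks differences of low genes. In tests on simulated data with 200 of 12734 genes changed in knockout, 93.5% were recovered at a log2 change of 1, 52.5% at 0.5 and 0.0% at 0.3. Fewer changed genes make the adjusted threshold stricter than in the real table. Each simulated gene was also drawn with its own raw spread between these libraries. The recovered shares therefore do not give the power of the real fit, which called members at 0.20 (ATP6V1H) and 0.23 (PPT1).

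Named members were the 3 regulators and, per functional group, up to 6 with the smallest p, called members of the minority sign and the 2 with the largest p in knockout against control, and from each other list up to 3 with the smallest p, of which some are not reported here. Coordinates are from GENCODE release 29 (GRCh38). Promoter windows are from RefSeq (GRCh38.p14), shown no further than 10 bases from a match where an annotated exon lies within 20. Tables were made with pandas 2.3.3 and numpy 2.4.6 in Python 3.11.15, and plots with matplotlib 3.10.9.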

Additional observations from a re-analysis of the deposited data

How the results depend on the processing

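In knockout against control, 29 of the 35 risen and 2 of the 8 fallen members (GUSB and ATP6V1B1-AS1) kept their call under each of the 16 alternatives that tested them, 12 lost it under at least 1, and none of the 43 changed sign. The fallen count was 5 without a trend and 3 to 8 with 1 library left out (5 without control replicate 1, 3 without knockout replicate 2), and the risen count was 28 to 37 with 1 library left out. In rescue against knockout, leaving out 1 library gave 19 to 32 fallen members, and 23 (without rescue replicate 1) to 37 members called in both comparisons with opposite signs, where all libraries gave 36. In rescue against control, 1 member, FUCA1, was called with a mean signal of at least 5, with the replicate block and with only 2 groups in the fit, and 0 to 1 with 1 library left out. Replicate numbers are shared by the groups, but deviations of like-numbered libraries correlated by -0.01, -0.05 and 0.10 across genes, so they pair nothing. With the replicate block 36 rose and 8 fell in knockout. The median of all genes in knockout against control was 0.067, and 0.001 with equal library medians, -0.004 after quantile normalization, 0.127 without control replicate 1 and 0.007 without control replicate 2. Members not called changed sign. With equal library medians these were NPC1 (-0.06), CTSC (-0.027), CTSD (-0.061), IDUA (-0.015), MANBA (-0.026), ATP6V1C1 (-0.042) and ATP6V1G1 (-0.019). After quantile normalization they were NPC1 (-0.058), IDUA (-0.033), MANBA (-0.0038), ATP6V1C1 (-0.036), ATP6V1C2 (-0.006) and ATP6V1G1 (-0.005), and CTSD was called as risen (0.10, adjusted p = 0.0186). With 1 library left out, values ran from -0.039 to 0.068 for NPC1, -0.03 to 0.06 for CTSD, -0.046 to 0.14 for IDUA, -0.15 to 0.10 for NAGLU, -0.26 to 0.033 for ATP6AP1L, -0.037 to 0.10 for ATP6V1C1, -0.035 to 0.22 for ATP6V1C2 and -0.00029 to 0.11 for ATP6V1G1. The causes were not tested.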
